A study of Mus musculus with 12 samples.

Results

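The genes described here are 29 members of the routes by which a cell makes, takes up and exports cholesterol, out of 55487 genes in the count table of a study of Min6 cells. Min6 is an established beta cell line derived from a mouse insulinoma, so it stands for islet beta cells only as far as a dividing tumour line can. Members were picked by gene name from their known roles, with earlier results of these data known. They fall into 4 steps. These are 7 enzymes of the mevalonate pathway, 11 enzymes of the sterol branch, 8 genes of uptake and regulation, and 3 target genes of the LXR receptors. mRNA was sequenced in 12 libraries, 3 for each of 4 groups that were all kept for 48 h with the solvent or with compounds. DMSO is the solvent control, FoxOi received 1 µM of AS1842856, an inhibitor of the transcription factor FoxO1, Loperamide received 5 µM of the opioid receptor agonist loperamide, and FoxOi_Loperamide received both. The labels name no genetic change in any group and no question about cholesterol, and by its title the study uses the inhibitor to model the loss of beta cell identity. Whether a group's libraries came from separate cultures is not stated, so p-values measure the spread between these libraries only, which may be technical.

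Levels are given as counts per 1000000 of the scaled library size (CPM), and differences as log2 fold changes with their standard error (SE), for the first group named relative to the second. Calls are those of edgeR's quasi-likelihood test with an adjusted p under 0.05 (Benjamini-Hochberg, over the 16808 genes that passed a filter on low counts), and all 29 members passed that filter. In RNA from bulk cells, fewer cells of a type and less RNA per cell cannot be told apart. FoxOi and Loperamide were not tested against each other. The fit uses group only, though libraries of the same replicate number deviated together from their group means. Calls that changed with that number as a block are named. The block added calls of members and removed none, so each call described as lost in another setting was kept with it.

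Cholesterol is built from acetyl-CoA through the mevalonate pathway, which also supplies the isoprenoids, and then through squalene and a chain of sterols. The SREBP transcription factors, products of Srebf1 and Srebf2, drive these enzymes. SCAP carries them from the endoplasmic reticulum (ER) to the Golgi when sterols are scarce, and the INSIG proteins hold SCAP back when sterols are plentiful. The LXR receptors sense oxysterols and turn on genes of export, among them Abca1 and Abcg1, as well as Mylip, whose product marks lipoprotein receptors for breakdown. In beta cells the cholesterol of membranes and granules is known to bear on insulin secretion.

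Promoter windows of RefSeq (GRCm38.p6, 250 bases before to 50 after a transcript start) were matched by symbol to 23 of the 29 members, which have 31 windows, and were searched on both strands for 4 motifs. TCACNCCAC is a form of the sterol regulatory element bound by SREBPs, and CACNCCAC, searched after the first had been counted, is the shorter form inside it. CCAAT is the box bound by NF-Y, and GGGCGG the box bound by Sp1, factors known to work beside SREBPs. TCACNCCAC stood in 1 of the 31 windows, that of Hmgcs1, and in 1.24% of all 32851 windows of the same length. CACNCCAC stood in 3 windows, those of Acat2, Hmgcs1 and Insig1, against 6.24% of all windows. CCAAT stood in 21 windows (67.7%, all windows 37.4%) and GGGCGG in 26 (83.9%, all windows 35.7%). The full set of windows was not limited to genes expressed in these cells, whereas all 29 members passed the filter on low counts. Some members also have more than 1 window. These shares therefore do not compare like with like. The windows of Abca1, Acat2 and Scap held no CCAAT. Stretches of 250 bases upstream of the start are printed 5′ to 3′ for 5 members that the results turn on, with CCAAT and CACNCCAC matches on either strand in capitals. Hmgcs1 acts early in the pathway, Msmo1 was higher in all 3 treated groups, Ebp fell with loperamide alone, Insig1 is the brake on SREBP transport, and Abca1 is the exporter that fell with the inhibitor.
Hmgcs1 (chr13:119690101-119690350, plus strand): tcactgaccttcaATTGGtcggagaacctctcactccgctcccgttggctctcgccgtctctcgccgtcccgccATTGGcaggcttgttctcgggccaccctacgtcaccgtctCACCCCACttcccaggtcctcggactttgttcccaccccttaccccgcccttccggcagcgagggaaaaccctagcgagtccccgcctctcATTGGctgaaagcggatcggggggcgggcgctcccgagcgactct
Msmo1 (chr8:64733579-64733828, minus strand): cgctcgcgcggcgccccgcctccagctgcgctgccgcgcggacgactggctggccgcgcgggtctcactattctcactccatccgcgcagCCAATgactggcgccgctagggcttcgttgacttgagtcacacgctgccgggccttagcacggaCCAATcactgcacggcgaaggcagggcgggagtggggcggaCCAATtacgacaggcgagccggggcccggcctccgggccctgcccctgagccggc
Ebp (chrX:8193513-8193762, minus strand): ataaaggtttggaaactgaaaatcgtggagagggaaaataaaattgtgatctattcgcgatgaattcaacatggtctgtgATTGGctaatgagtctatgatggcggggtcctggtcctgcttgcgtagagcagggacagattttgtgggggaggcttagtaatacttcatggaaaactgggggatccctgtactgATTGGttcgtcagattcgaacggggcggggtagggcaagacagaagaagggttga
Insig1 (chr5:28071162-28071411, plus strand): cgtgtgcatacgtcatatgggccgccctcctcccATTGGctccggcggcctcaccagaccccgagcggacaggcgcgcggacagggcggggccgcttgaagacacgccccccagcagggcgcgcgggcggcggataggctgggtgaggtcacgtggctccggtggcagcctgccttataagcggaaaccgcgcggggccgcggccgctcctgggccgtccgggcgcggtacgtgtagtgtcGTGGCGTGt
Abca1 (chr4:53159896-53160145, minus strand): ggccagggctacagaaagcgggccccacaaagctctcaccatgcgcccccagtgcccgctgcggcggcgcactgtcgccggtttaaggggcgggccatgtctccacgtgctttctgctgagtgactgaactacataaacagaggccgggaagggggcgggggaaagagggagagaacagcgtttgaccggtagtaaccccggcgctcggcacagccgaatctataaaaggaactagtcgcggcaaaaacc
The Hmgcs1 stretch holds TCACCCCAC from base -137 counted from the start, with 3 CCAAT matches around it. Msmo1 holds 3 CCAAT matches, Ebp 2 and Insig1 1, and the GTGGCGTG of Insig1 is CACNCCAC read from the other strand. The Abca1 stretch holds neither motif. A match describes the letters only and is not a measured binding site.

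Total counts ran from 10640485 to 19499216 per library, and the Loperamide libraries were the shallowest (10640485 to 14009431, against 14358011 to 17045589 in DMSO). All 8 beta cell markers were over 1 CPM in every group. Their summed level, mostly Ins2 and Iapp, was 61035 to 84669 CPM in DMSO and 34623 to 39431 in FoxOi. It was 62698 to 63116 in Loperamide and 26779 to 31575 in FoxOi_Loperamide. These markers did not move alike, as G6pc2 was at 1705 ± 69.5 CPM in FoxOi against 1665 ± 65.7 in DMSO (SD, n = 3). The other beta cell markers had lower means in FoxOi, among them Slc30a8 at 318 ± 23.8 CPM against 390 ± 69.5. Of 4 alpha cell markers 3 were over 1 CPM in each group, led by Ttr and Gcg. Their sum was 2614 to 3834 CPM in DMSO, 1816 to 2445 in FoxOi, 394 to 722 in Loperamide and 865 to 1187 in FoxOi_Loperamide. In FoxOi the leading markers lay on opposite sides of DMSO, with Ttr at 1092 ± 186 CPM against 2520.0 ± 505 in DMSO and Gcg at 1084 ± 196 against 717 ± 131 (SD, n = 3). The sum of 3 delta cell markers, mostly Sst, was 48.0 to 90.5 CPM in DMSO, 61.5 to 156 in FoxOi, 11.0 to 23.2 in Loperamide and 13.9 to 25.6 in FoxOi_Loperamide. Among 4 ductal markers Krt7 was at 294 ± 44.7 CPM in DMSO and 139 ± 20.1 in FoxOi, while Spp1 was at 6.55 ± 1.09 and 202 ± 28.4, and Krt19 and Sox9 were at or under 0.168 CPM in each group. The summed acinar, fibroblast and hepatocyte markers were each at or under 4.31 CPM in every library. The sum of 7 macrophage and leukocyte markers was 4.55 to 6.07 CPM in DMSO, 21.6 to 22.9 in FoxOi, 4.26 to 4.67 in Loperamide and 7.31 to 7.67 in FoxOi_Loperamide. Its rise in FoxOi lay mostly in Cd68 (2.08 ± 0.596 to 17.8 ± 0.169 CPM), while Tyrobp had 0 counts in all libraries and Ptprc, Adgre1 and Itgam were at or under 0.205 CPM in each group. Mitochondrial genes took 1.40% to 1.94% of counts in DMSO and 2.38% to 3.30% in FoxOi_Loperamide. The part of these shifts in the results was not tested.

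Of the 18 enzymes of cholesterol synthesis, 14 rose with loperamide alone, where 16.1% of all genes tested rose, 14 rose with both compounds, where 22.3% did, and 9 rose with the inhibitor alone, where 20.7% did. The exporter Abca1 fell in both groups with the FoxO1 inhibitor. The 29 members together took 0.186% to 0.197% of all counts in the DMSO libraries, 0.256% to 0.267% in FoxOi, 0.260% to 0.300% in Loperamide and 0.333% to 0.340% in FoxOi_Loperamide, so the 3 FoxOi_Loperamide libraries stood above the other 9 and the 3 DMSO libraries below. With the inhibitor alone 13 of 29 members rose and 4 fell, where 20.7% of all genes tested rose and 20.3% fell. With loperamide alone 19 rose and 1 fell, where 16.1% of all genes rose and 15.8% fell. With both compounds 18 rose and 2 fell, where 22.3% of all genes rose and 23.2% fell. The median log2 fold change of the members was 0.19 with the inhibitor, 0.54 with loperamide and 0.70 with both, while the median over all genes tested was 0.012, 0.024 and 0.0057. These comparisons share the DMSO libraries.

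By step, the inhibitor alone raised 3 of 7 mevalonate enzymes and 6 of 11 sterol enzymes, and 1 sterol enzyme fell. Over all genes tested 20.7% rose and 20.3% fell there. Loperamide alone raised 5 of 7 and 9 of 11, and again 1 sterol enzyme, a different gene, fell, where 16.1% of all genes rose and 15.8% fell. The combination raised 6 of 7 and 8 of 11, with no enzyme called lower, where 22.3% of all genes rose and 23.2% fell. All 18 enzymes had a positive log2 fold change with both compounds, while the median over all genes tested was 0.0057. Among the 8 genes of uptake and regulation, 4 rose in each comparison, and 1 fell in those with the inhibitor. Of the 3 LXR targets, 2 fell with the inhibitor, 1 rose with loperamide and 1 fell with both. The shares over all genes given for each comparison hold beside these counts too, and steps of 3 and 8 genes are small. Within the Loperamide group, replicate 2 was above the group mean in 2 of 18 enzymes, and the calls that changed without it are named beside each gene. Other libraries leaned as well. FoxOi_Loperamide replicate 3 was above its group mean in 4 enzymes, FoxOi_Loperamide replicate 2 in 16, FoxOi replicate 2 in 15 and Loperamide replicate 3 in 14.

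**Figure D1:**
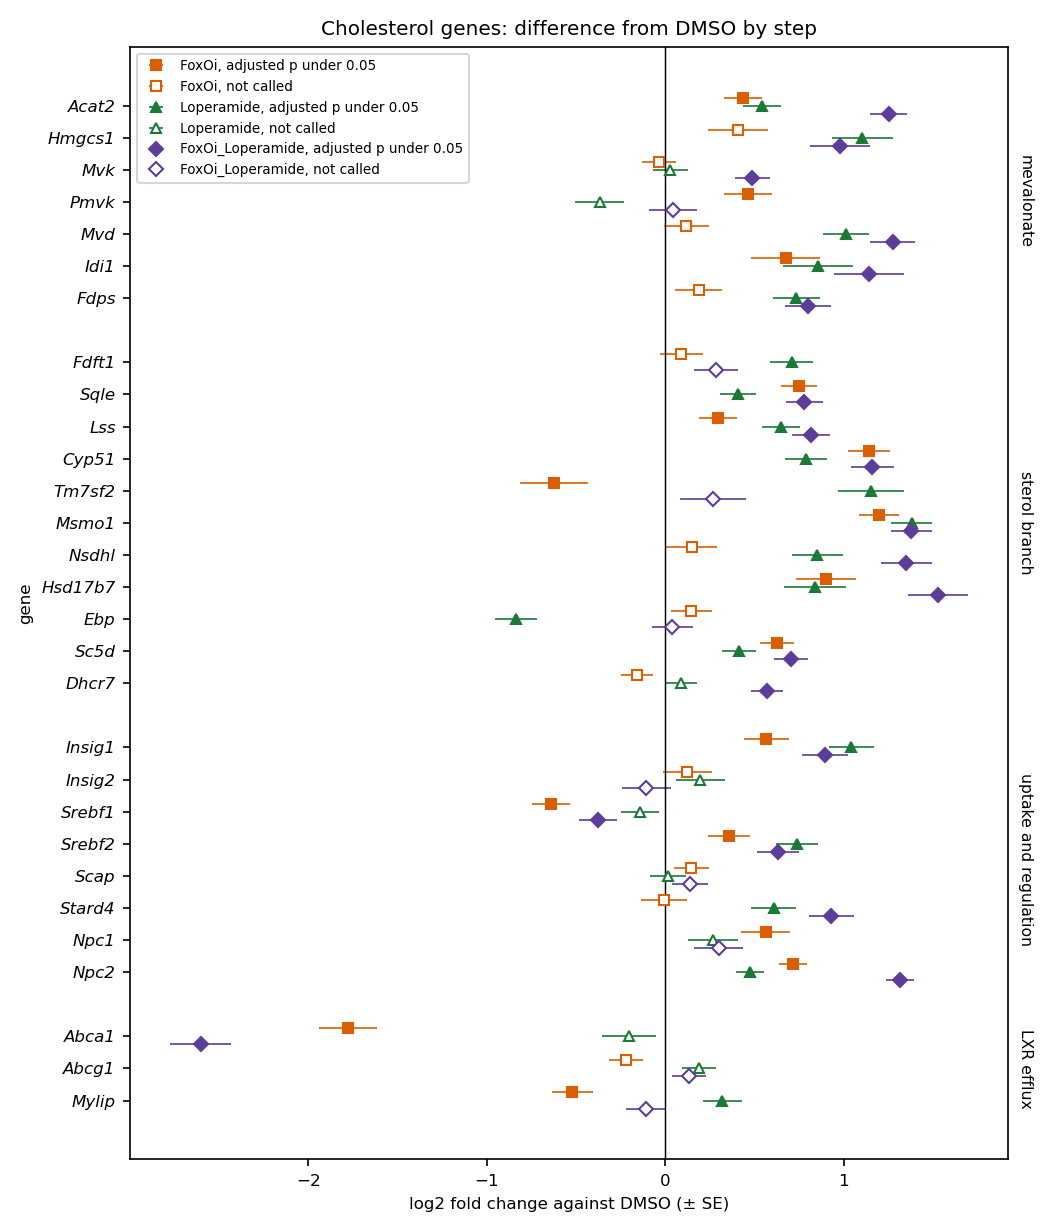
Log2 fold change against DMSO (horizontal axis, ± SE, 3 libraries per group) of the 29 members, ordered by step, with squares for FoxOi, triangles for Loperamide and diamonds for FoxOi_Loperamide. Filled symbols are genes called at an adjusted p under 0.05, and open symbols are not called. Most enzymes lie right of 0, and Abca1 lies at -1.78 with the inhibitor and -2.60 with both compounds.

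Levels compared between genes are per length, as the authors' FPKM. In DMSO they ran from 2.01 ± 0.326 FPKM for Hsd17b7 to 65.8 ± 1.26 for Npc2 (SD, n = 3). After Npc2 came Srebf1 at 60.0 ± 8.12 FPKM, Sqle at 45.9 ± 5.35 and Insig1 at 35.0 ± 4.82. Npc2 and Srebf1 overlapped, as the highest Srebf1 library (66.8 FPKM) lay within the range of Npc2 (64.6 to 67.2). Among the enzymes, Sqle was followed by Ebp (33.2 ± 3.92) and Msmo1 (32.8 ± 2.43), whose libraries overlapped each other. The LXR targets Abca1 (3.02 ± 0.481) and Mylip (4.21 ± 0.387) stood among the 3 lowest members. Order changed with treatment, and in FoxOi_Loperamide Msmo1 stood at 85.1 ± 2.13 FPKM beside Sqle at 78.7 ± 5.62, while Ebp was at 34.2 ± 4.53.

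**Figure D2:**
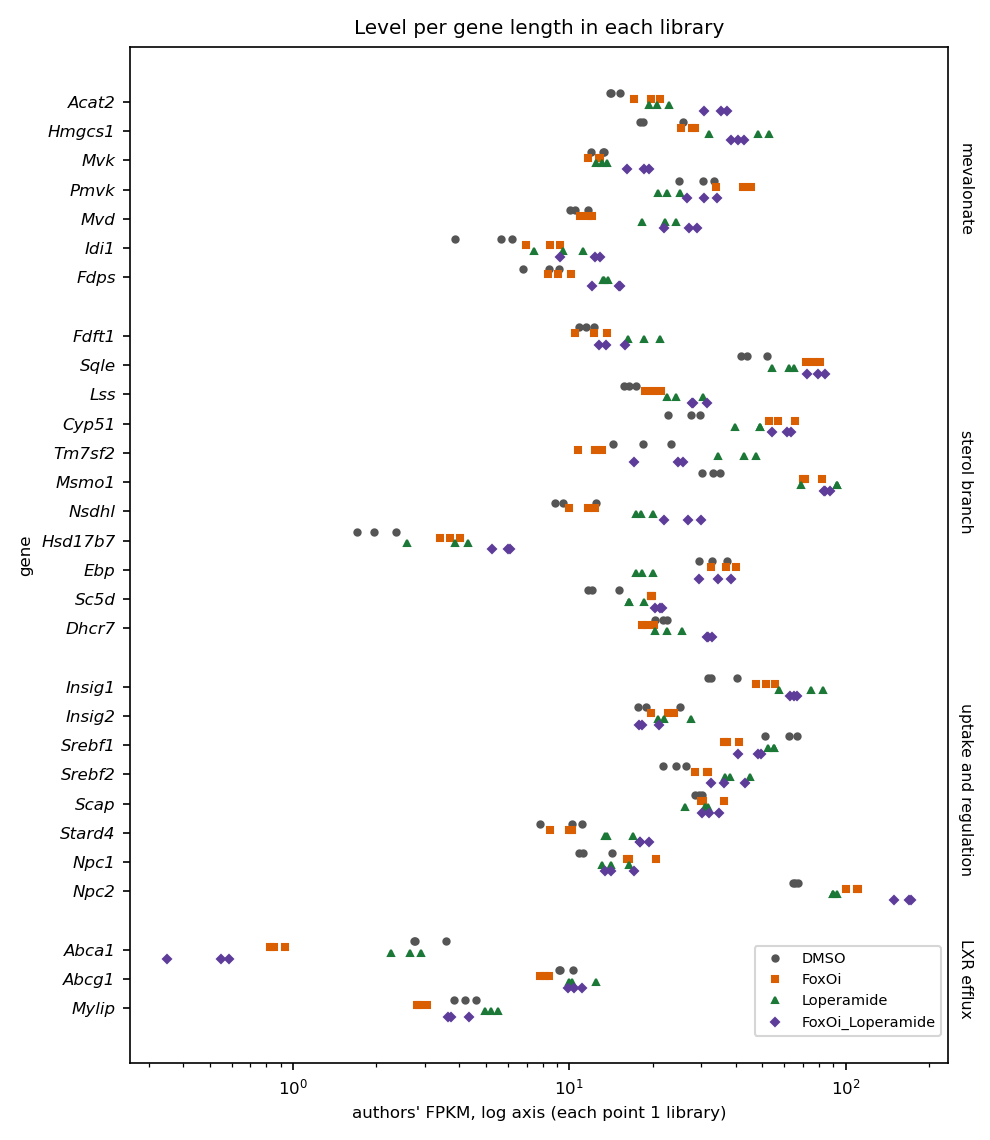
The authors' FPKM (log axis) of each of the 29 members in each of the 12 libraries, 1 point per library, with groups set apart by symbol and height. Levels in DMSO span 2.01 FPKM (Hsd17b7) to 65.8 FPKM (Npc2), and the FoxOi_Loperamide points of Abca1 lie left of all others in the plot.

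The mevalonate pathway opens with Acat2, the cytosolic thiolase that joins acetyl-CoA units (ENSMUSG00000023832, chromosome 17, 12942890 to 12960747, GRCm38). Its libraries stood at 38.7, 34.8 and 35.2 CPM in DMSO, 53.6, 49.8 and 43.7 in FoxOi, 52.2, 48.4 and 57.7 in Loperamide and 87.9, 93.8 and 77.2 in FoxOi_Loperamide. Every treated library was above every DMSO library, and the FoxOi_Loperamide libraries were above all others. Log2 fold changes against DMSO were 0.43 ± 0.11 (SE, adjusted p = 0.00413) with the inhibitor, 0.54 ± 0.11 (SE, adjusted p = 0.00130) with loperamide and 1.25 ± 0.11 (SE, adjusted p = 2.70e-07) with both. Of the 50-base stretches in Acat2 transcripts, 39.1% also occur in another gene, almost all in Acat3, so reads may have been divided between them. Acat3, at 0.51, 0.33 and 1.18 in the same 3 comparisons, moved in the same direction.

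Hmgcs1, the synthase that makes HMG-CoA (ENSMUSG00000093930, chromosome 13, 119690379 to 119708260), stood at 63.6, 64.0 and 90.1 CPM in DMSO, 89.2, 97.6 and 102 in FoxOi, 169, 112 and 186 in Loperamide and 141, 151 and 136 in FoxOi_Loperamide. The Loperamide and FoxOi_Loperamide libraries all lay above DMSO, while FoxOi overlapped it. Hmgcs1 rose by 1.10 ± 0.17 (SE, adjusted p = 2.69e-04) with loperamide and by 0.98 ± 0.17 (SE, adjusted p = 3.64e-04) with both compounds, a fold of 2.15 and 1.97. With the inhibitor alone the value was 0.41 ± 0.17 (SE, adjusted p = 0.0702), which became a call with no filter on low counts (adjusted p = 0.00234), in a fit of those groups alone (adjusted p = 0.0483) or without DMSO replicate 3 (adjusted p = 0.0131). Its upstream stretch is the first of those printed above.

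Mvk, mevalonate kinase (ENSMUSG00000041939, chromosome 5, 114444269 to 114460591), stood at 27.2, 26.3 and 23.9 CPM in DMSO, 26.0, 25.9 and 23.7 in FoxOi, 26.4, 24.9 and 27.7 in Loperamide and 36.9, 39.1 and 32.6 in FoxOi_Loperamide. Only with both compounds did all libraries lie above DMSO. Its log2 fold change was 0.49 ± 0.10 (SE, adjusted p = 8.04e-04) there, against -0.036 ± 0.10 (SE, adjusted p = 0.794) with the inhibitor and 0.028 ± 0.10 (SE, adjusted p = 0.854) with loperamide.

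Pmvk, the next kinase (ENSMUSG00000027952, chromosome 3, 89454541 to 89469013), was at 58.3, 52.0 and 42.6 CPM in DMSO, 78.5, 73.2 and 59.2 in FoxOi, 43.6, 35.9 and 39.2 in Loperamide and 58.2, 53.1 and 46.4 in FoxOi_Loperamide. All FoxOi libraries lay above DMSO, and the other groups overlapped it. It rose by 0.46 ± 0.13 (SE, adjusted p = 0.0118) with the inhibitor, a call lost on FPKM without a filter (adjusted p = 0.0538), without DMSO replicate 3 (adjusted p = 0.0790) or without FoxOi replicate 1 (adjusted p = 0.0769). With loperamide it was at -0.37 ± 0.14 (SE, adjusted p = 0.0511), which was a call with the replicate number as a block (adjusted p = 3.68e-04) and in DESeq2 (adjusted p = 0.0446), with RLE scaling (adjusted p = 0.0492), with no filter on low counts (adjusted p = 0.00994), without DMSO replicate 3 (adjusted p = 0.0124) or without Loperamide replicate 1 (adjusted p = 0.0492). With both compounds it was at 0.043 ± 0.13 (SE, adjusted p = 0.821). The call with the inhibitor was kept with the replicate block (adjusted p = 3.86e-06).

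Mvd, the decarboxylase that makes isopentenyl diphosphate (ENSMUSG00000006517, chromosome 8, 122433601 to 122443422), stood at 20.9, 18.4 and 17.6 CPM in DMSO, 21.4, 20.7 and 19.6 in FoxOi, 43.2, 32.3 and 39.4 in Loperamide and 50.6, 47.9 and 39.0 in FoxOi_Loperamide. FoxOi overlapped DMSO, and both groups with loperamide were above it in every library. The rise was 1.01 ± 0.13 (SE, adjusted p = 3.28e-05) with loperamide and 1.27 ± 0.13 (SE, adjusted p = 1.33e-06) with both, and the value with the inhibitor alone was 0.12 ± 0.13 (SE, adjusted p = 0.493).

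Idi1, the isomerase of that product (ENSMUSG00000058258, chromosome 13, 8885501 to 8892451), was at 11.9, 17.1 and 18.7 CPM in DMSO, 21.3, 28.3 and 26.3 in FoxOi, 29.0, 22.6 and 34.4 in Loperamide and 27.9, 39.3 and 38.0 in FoxOi_Loperamide. All treated libraries were above all DMSO libraries. Its log2 fold change was 0.67 ± 0.19 (SE, adjusted p = 0.0131) with the inhibitor, a call lost on FPKM without a filter (adjusted p = 0.0562), without DMSO replicate 1 (adjusted p = 0.0594) or without FoxOi replicate 2 (adjusted p = 0.0533). It was 0.85 ± 0.20 (SE, adjusted p = 0.00468) with loperamide and 1.14 ± 0.19 (SE, adjusted p = 2.96e-04) with both. The call with the inhibitor was kept with the replicate block (adjusted p = 9.43e-05). Idi1 shares 17.7% of its 50-base stretches with the predicted gene Gm13502, and the division of reads between them is uncertain.

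Fdps, which makes farnesyl diphosphate at the branch to isoprenoids (ENSMUSG00000059743, chromosome 3, 89093588 to 89101959), stood at 13.5, 12.2 and 9.91 CPM in DMSO, 14.9, 13.3 and 12.4 in FoxOi, 19.4, 19.5 and 20.3 in Loperamide and 22.1, 22.1 and 17.8 in FoxOi_Loperamide. Both groups with loperamide lay above DMSO, and FoxOi overlapped it. It rose by 0.73 ± 0.13 (SE, adjusted p = 6.60e-04) with loperamide and by 0.80 ± 0.13 (SE, adjusted p = 1.53e-04) with both, and was at 0.19 ± 0.13 (SE, adjusted p = 0.281) with the inhibitor. The predicted gene Gm43738 overlaps its exons on the same strand over 26.7% of exonic bases and was given 0 counts in every group, so the level of Fdps is uncertain.

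In the sterol branch, Fdft1 (ENSMUSG00000021273, chromosome 14, 63145150 to 63179578), the squalene synthase, stood at 49.9, 43.1 and 46.0 CPM in DMSO, 49.7, 55.3 and 42.8 in FoxOi, 85.9, 65.5 and 75.6 in Loperamide and 63.0, 54.6 and 51.5 in FoxOi_Loperamide. Loperamide alone gave its highest levels, all above the other groups. It rose by 0.71 ± 0.12 (SE, adjusted p = 4.76e-04) with loperamide, while the inhibitor gave 0.089 ± 0.12 (SE, adjusted p = 0.590) and both gave 0.28 ± 0.12 (SE, adjusted p = 0.0693). The last was a call with the replicate block (adjusted p = 0.00551) and with no filter on low counts (adjusted p = 0.0406). Exons of Fdft1 overlap those of Ctsb, a cathepsin gene on the opposite strand, over 18.3% of exonic bases, and Ctsb was at 1.00, -0.17 and 1.06 in the 3 comparisons. The strand setting of the authors' counting is not given in the sources used here, so reads of the 2 genes may not be separated.

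Sqle, the squalene epoxidase and a control point of the branch (ENSMUSG00000022351, chromosome 15, 59315077 to 59331192), was at 117, 121 and 143 CPM in DMSO, 201, 225 and 215 in FoxOi, 174, 149.7 and 182 in Loperamide and 199.7, 221 and 234 in FoxOi_Loperamide. All treated libraries were above DMSO, and the Loperamide libraries were below those of both groups with the inhibitor. The log2 fold change was 0.75 ± 0.10 (SE, adjusted p = 3.82e-05) with the inhibitor, 0.41 ± 0.10 (SE, adjusted p = 0.00724) with loperamide and 0.78 ± 0.10 (SE, adjusted p = 2.19e-05) with both. Lss, the cyclase that makes lanosterol (ENSMUSG00000033105, chromosome 10, 76531588 to 76557138), had group means of 77.6 ± 3.15 CPM in DMSO, 95.2 ± 5.61 in FoxOi, 121 ± 19.7 in Loperamide and 136 ± 9.82 in FoxOi_Loperamide (SD, n = 3). It rose by 0.65 ± 0.11 (SE, adjusted p = 3.41e-04) with loperamide and by 0.81 ± 0.11 (SE, adjusted p = 2.12e-05) with both. With the inhibitor it rose by 0.29 ± 0.11 (SE, adjusted p = 0.0374), a call lost on FPKM with a pseudocount of 1 (adjusted p = 0.0566), on FPKM with a pseudocount of 0.1 (adjusted p = 0.0547), on FPKM without a filter (adjusted p = 0.110), without DMSO replicate 1 (adjusted p = 0.142), without DMSO replicate 2 (adjusted p = 0.128), without DMSO replicate 3 (adjusted p = 0.0627), without FoxOi replicate 1 (adjusted p = 0.104) or without FoxOi replicate 2 (adjusted p = 0.127). That call was kept with the replicate block (adjusted p = 0.00416).

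Cyp51, the lanosterol demethylase (ENSMUSG00000001467, chromosome 5, 4081145 to 4104746), stood at 110.3, 89.7 and 117 CPM in DMSO, 227, 261 and 211 in FoxOi, 194, 157 and 195 in Loperamide and 248, 243 and 216 in FoxOi_Loperamide. No treated library overlapped DMSO. The inhibitor raised it 2.20-fold, by 1.14 ± 0.12 (SE, adjusted p = 3.33e-06) on the log2 scale, loperamide by 0.79 ± 0.12 (SE, adjusted p = 1.67e-04), and both by 1.16 ± 0.12 (SE, adjusted p = 2.05e-06). The value for both compounds together was close to that for the inhibitor alone, and the difference is tested further on.

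Msmo1, the next demethylase (ENSMUSG00000031604, chromosome 8, 64718139 to 64733792), was at 62.9, 67.3 and 71.8 CPM in DMSO, 148, 169 and 146 in FoxOi, 192, 141 and 193 in Loperamide and 170.1, 180.4 and 174 in FoxOi_Loperamide. Every treated library lay between 141 and 193 CPM, and every DMSO library was at or under 71.8 CPM. In the fit without a block it had the smallest adjusted p of the sterol branch in all 3 comparisons. It rose by 1.20 ± 0.11 (SE, adjusted p = 1.23e-06) with the inhibitor, 1.38 ± 0.11 (SE, adjusted p = 8.09e-07) with loperamide and 1.38 ± 0.11 (SE, adjusted p = 2.24e-07) with both. With the replicate block the smallest belonged to Sqle, Tm7sf2 and Nsdhl in turn. The upstream stretch of Msmo1, printed above, carries CCAAT matches from bases -160, -96 and -55.

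Tm7sf2, a sterol reductase (ENSMUSG00000024799, chromosome 19, 6062821 to 6068373), stood at 40.1, 31.4 and 24.4 CPM in DMSO, 22.5, 21.2 and 18.6 in FoxOi, 81.0, 73.1 and 59.2 in Loperamide and 41.8, 44.1 and 29.5 in FoxOi_Loperamide. The FoxOi libraries were below and the Loperamide libraries above DMSO, and FoxOi_Loperamide overlapped DMSO. It fell by 0.62 ± 0.19 (log2 ± SE, adjusted p = 0.0170) with the inhibitor, rose by 1.15 ± 0.18 (SE, adjusted p = 3.63e-04) with loperamide, and was at 0.27 ± 0.18 (SE, adjusted p = 0.263) with both. The fall was not called on FPKM without a filter (adjusted p = 0.0680), without DMSO replicate 1 (adjusted p = 0.0638) or without FoxOi replicate 3 (adjusted p = 0.0663), and the value with both was called with the replicate block (adjusted p = 0.00720). The fall with the inhibitor was called with that block as well (adjusted p = 1.47e-06). Exons of Tm7sf2 overlap those of Vps51 on the same strand over 12.1% of exonic bases, and Vps51 was at -0.40, 0.19 and -0.37, so the levels of both are uncertain.

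Nsdhl, the dehydrogenase that follows Msmo1 (ENSMUSG00000031349, chromosome X, 72918557 to 72958514), was at 27.6, 19.2 and 20.6 CPM in DMSO, 27.1, 25.5 and 22.1 in FoxOi, 43.8, 37.9 and 40.0 in Loperamide and 64.6, 58.6 and 48.4 in FoxOi_Loperamide. FoxOi overlapped DMSO, Loperamide lay above both, and FoxOi_Loperamide lay above all. Its log2 fold change was 0.15 ± 0.14 (SE, adjusted p = 0.440) with the inhibitor, 0.85 ± 0.14 (SE, adjusted p = 3.98e-04) with loperamide and 1.35 ± 0.14 (SE, adjusted p = 2.46e-06) with both. Hsd17b7, a keto-reductase of the same steps (ENSMUSG00000026675, chromosome 1, 169949535 to 169969241), was the enzyme with the largest log2 fold change with both compounds. Its libraries stood at 8.76, 9.89 and 11.9 CPM in DMSO, 17.4, 20.4 and 19.1 in FoxOi, 19.6, 13.1 and 21.9 in Loperamide and 26.3, 30.5 and 31.1 in FoxOi_Loperamide. It rose by 0.90 ± 0.17 (SE, adjusted p = 5.95e-04) with the inhibitor, 0.84 ± 0.17 (SE, adjusted p = 0.00181) with loperamide and 1.53 ± 0.17 (SE, adjusted p = 3.66e-06) with both, the last a fold of 2.88.

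Ebp, the sterol isomerase also known as a binding protein for drugs (ENSMUSG00000031168, chromosome X, 8185329 to 8193512), stood at 66.0, 57.3 and 51.4 CPM in DMSO, 70.6, 65.0 and 57.8 in FoxOi, 32.2, 35.0 and 30.6 in Loperamide and 66.9, 60.6 and 52.0 in FoxOi_Loperamide. The Loperamide libraries were all below the other 9, and the other 3 groups overlapped. With loperamide alone Ebp fell to 0.560 times its DMSO level, a log2 change of -0.84 ± 0.12 (SE, adjusted p = 1.05e-04). With the inhibitor it was at 0.15 ± 0.12 (SE, adjusted p = 0.342), and with both compounds at 0.039 ± 0.12 (SE, adjusted p = 0.813). The Ebp stretch printed above has its CCAAT matches on the minus strand of the window, from bases -170 and -55.

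Sc5d, a sterol desaturase (ENSMUSG00000032018, chromosome 9, 42251595 to 42264256), had means of 63.4 ± 8.86 CPM in DMSO, 97.8 ± 0.631 in FoxOi, 84.3 ± 6.39 in Loperamide and 103 ± 3.79 in FoxOi_Loperamide (SD, n = 3). It rose by 0.63 ± 0.10 (SE, adjusted p = 1.16e-04) with the inhibitor, 0.41 ± 0.10 (SE, adjusted p = 0.00473) with loperamide and 0.70 ± 0.10 (SE, adjusted p = 3.33e-05) with both. Dhcr7, the reductase that yields cholesterol at the end of the chain (ENSMUSG00000058454, chromosome 7, 143823145 to 143848410), was at 76.0, 67.6 and 72.3 CPM in DMSO, 67.6, 61.0 and 64.8 in FoxOi, 75.4, 68.1 and 85.7 in Loperamide and 108, 106 and 106 in FoxOi_Loperamide. Like Mvk, it had all libraries above DMSO only with both compounds. Its log2 fold change there was 0.57 ± 0.090 (SE, adjusted p = 1.26e-04), against 0.086 ± 0.091 (SE, adjusted p = 0.508) with loperamide and -0.16 ± 0.090 (SE, adjusted p = 0.177) with the inhibitor, and the last was a call with the replicate block (adjusted p = 0.0432).

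**Figure D3:**
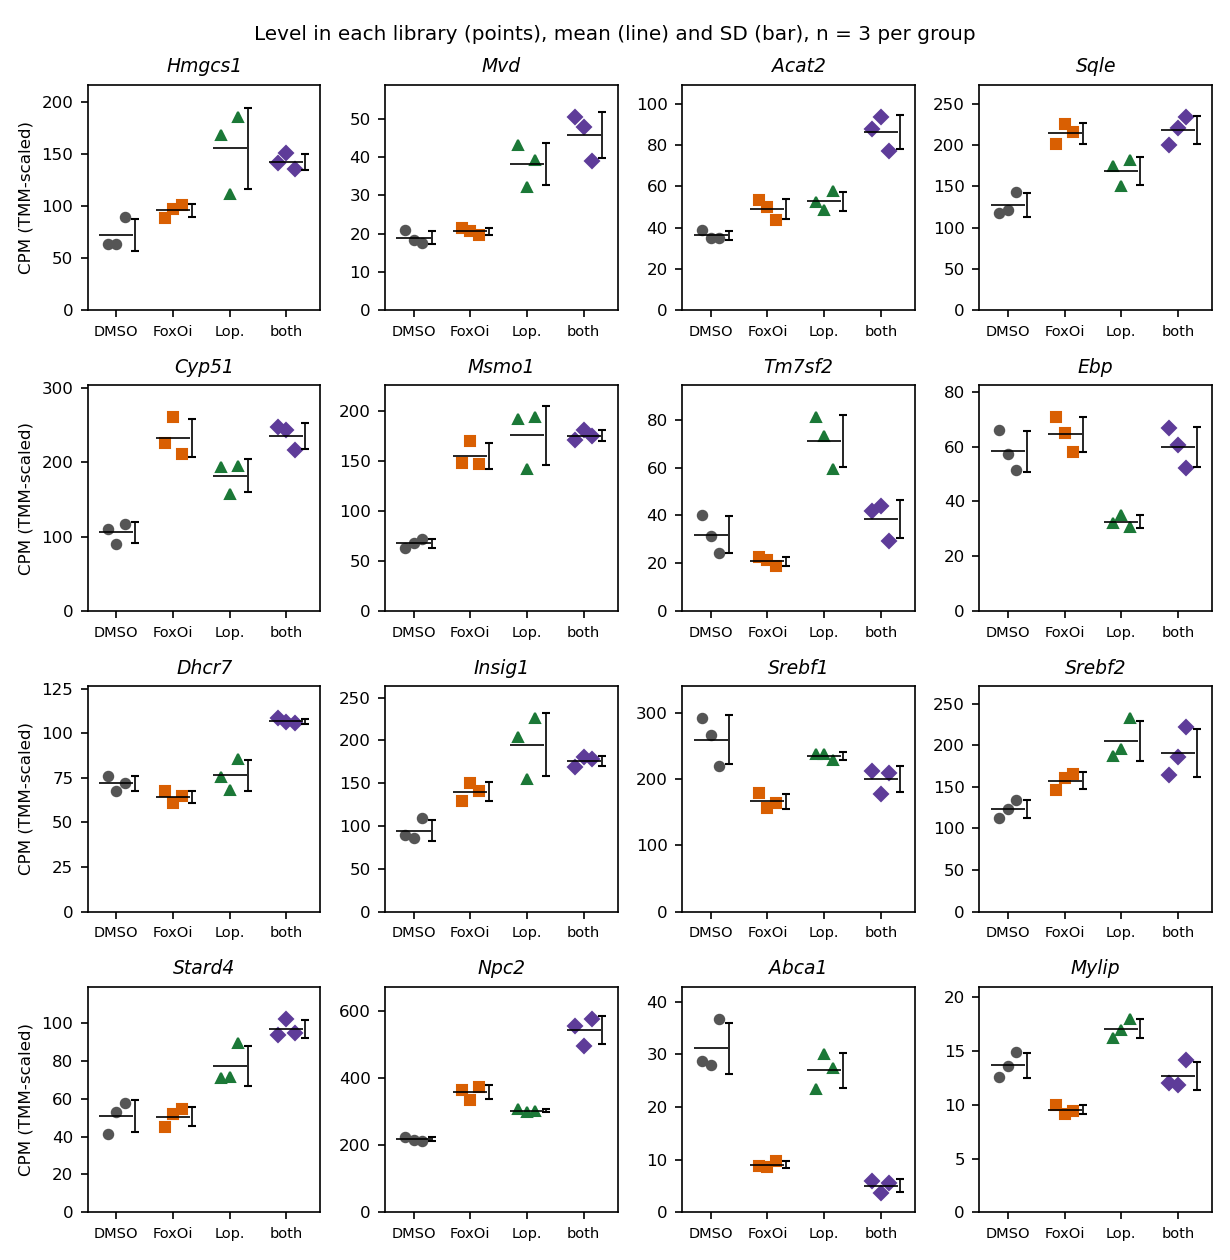
CPM (TMM-scaled, linear axes from 0) of 16 members in each library, with points for libraries, a line for the group mean and a bar for the SD (n = 3), where Lop. is Loperamide and both is FoxOi_Loperamide. Acat2, Dhcr7 and Npc2 are highest with both compounds, Ebp is low in Loperamide alone, and Abca1 is low in both groups with the inhibitor.

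Among the regulators, Insig1 (ENSMUSG00000045294, chromosome 5, 28071363 to 28078662), which retains SCAP in the ER and is itself an SREBP target, stood at 89.4, 85.7 and 109 CPM in DMSO, 129, 150.4 and 141 in FoxOi, 204, 155 and 226 in Loperamide and 169, 181 and 178.2 in FoxOi_Loperamide. All treated libraries were above DMSO. It rose by 0.57 ± 0.13 (SE, adjusted p = 0.00241) with the inhibitor, 1.04 ± 0.13 (SE, adjusted p = 2.73e-05) with loperamide and 0.89 ± 0.13 (SE, adjusted p = 4.86e-05) with both. Insig2, a relative that also retains SCAP (ENSMUSG00000003721, chromosome 1, 121304353 to 121332589), was at 53.0, 55.9 and 74.3 CPM in DMSO, 59.0, 67.97 and 72.3 in FoxOi, 62.2, 65.3 and 82.0 in Loperamide and 52.6, 54.6 and 62.8 in FoxOi_Loperamide, and all groups overlapped DMSO. Its log2 fold changes were 0.12 ± 0.14 (SE, adjusted p = 0.508), 0.20 ± 0.14 (SE, adjusted p = 0.307) and -0.11 ± 0.14 (SE, adjusted p = 0.563), and the one with loperamide was a call with the replicate block (adjusted p = 0.0185).

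The SREBP genes moved in opposite directions with the inhibitor. Srebf1 (ENSMUSG00000020538, chromosome 11, 60199089 to 60222581), whose products act mainly on fatty acid genes, stood at 292, 267 and 219 CPM in DMSO, 179, 157 and 164 in FoxOi, 238, 238 and 228 in Loperamide and 212, 177 and 209.9 in FoxOi_Loperamide. The groups with the inhibitor lay below DMSO, and Loperamide overlapped it. It fell by 0.64 ± 0.11 (log2 ± SE, adjusted p = 2.09e-04) with the inhibitor and fell by 0.38 ± 0.11 (adjusted p = 0.00895) with both, and was at -0.14 ± 0.11 (SE, adjusted p = 0.328) with loperamide. The call with both compounds was lost without FoxOi_Loperamide replicate 2 (adjusted p = 0.0525).

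Srebf2 (ENSMUSG00000022463, chromosome 15, 82147181 to 82205379), whose product acts mainly on cholesterol genes, stood at 112, 123 and 134 CPM in DMSO, 146, 161 and 165 in FoxOi, 187, 195 and 232 in Loperamide and 164, 186 and 222 in FoxOi_Loperamide. All treated libraries were above DMSO. It rose by 0.74 ± 0.12 (SE, adjusted p = 2.46e-04) with loperamide and by 0.63 ± 0.12 (SE, adjusted p = 4.57e-04) with both. The rise with the inhibitor was 0.36 ± 0.12 (SE, adjusted p = 0.0230), a call lost on FPKM without a filter (adjusted p = 0.0761), without DMSO replicate 1 (adjusted p = 0.109), without DMSO replicate 2 (adjusted p = 0.0756), without FoxOi replicate 2 (adjusted p = 0.0663) or without FoxOi replicate 3 (adjusted p = 0.0717). The Srebf2 call with the inhibitor was kept with the replicate block (adjusted p = 1.09e-05). Scap (ENSMUSG00000032485, chromosome 9, 110333288 to 110384950) had means of 125 ± 2.51 CPM in DMSO, 138 ± 16.2 in FoxOi, 126 ± 12.8 in Loperamide and 138 ± 10.7 in FoxOi_Loperamide (SD, n = 3). Its log2 fold changes were 0.15 ± 0.10 (SE, adjusted p = 0.266), 0.015 ± 0.10 (SE, adjusted p = 0.929) and 0.14 ± 0.10 (SE, adjusted p = 0.277), none of them called.

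Stard4, which moves cholesterol between membranes (ENSMUSG00000024378, chromosome 18, 33199355 to 33213862), stood at 41.4, 53.2 and 57.7 CPM in DMSO, 44.9, 52.1 and 54.4 in FoxOi, 70.7, 71.4 and 89.5 in Loperamide and 93.5, 102 and 94.5 in FoxOi_Loperamide. The groups with loperamide were above DMSO in every library, and FoxOi overlapped it. It rose by 0.61 ± 0.13 (SE, adjusted p = 0.00214) with loperamide and 0.93 ± 0.13 (SE, adjusted p = 3.12e-05) with both, and was at -0.0078 ± 0.13 (SE, adjusted p = 0.970) with the inhibitor.

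Npc1 and Npc2 pass cholesterol from lipoproteins out of the lysosome. Npc2, the soluble carrier (ENSMUSG00000021242, chromosome 12, 84754562 to 84773152), was at 225, 217 and 213 CPM in DMSO, 367, 335 and 375 in FoxOi, 309, 299 and 301 in Loperamide and 556, 497 and 577 in FoxOi_Loperamide, with no overlap between any of the groups. It rose by 0.72 ± 0.078 (SE, adjusted p = 5.14e-06) with the inhibitor, 0.47 ± 0.078 (SE, adjusted p = 3.52e-04) with loperamide and 1.32 ± 0.079 (SE, adjusted p = 9.47e-09) with both, the last the smallest adjusted p of any member. Npc1, the membrane partner (ENSMUSG00000024413, chromosome 18, 12189692 to 12236400), had means of 63.7 ± 9.59 CPM in DMSO, 93.9 ± 13.6 in FoxOi, 76.5 ± 9.07 in Loperamide and 78.3 ± 10.9 in FoxOi_Loperamide (SD, n = 3). It rose by 0.56 ± 0.14 (SE, adjusted p = 0.00421) with the inhibitor and was at 0.27 ± 0.14 (SE, adjusted p = 0.157) with loperamide and 0.30 ± 0.14 (SE, adjusted p = 0.0887) with both. The last values were calls with the replicate block (adjusted p = 8.11e-04 with loperamide and adjusted p = 1.37e-04 with both) and without DMSO replicate 3 (adjusted p = 0.0462 and 0.0208). With no filter on low counts the value with both was also a call (adjusted p = 0.0249).

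Among the LXR targets, Abca1, which loads cholesterol onto lipoproteins at the cell surface (ENSMUSG00000015243, chromosome 4, 53030787 to 53159895), stood at 28.7, 28.0 and 36.7 CPM in DMSO, 8.83, 8.57 and 9.79 in FoxOi, 23.4, 30.0 and 27.4 in Loperamide and 5.99, 3.63 and 5.67 in FoxOi_Loperamide. Both groups with the inhibitor were below every library without it, and the FoxOi_Loperamide libraries were below those of FoxOi. With the inhibitor Abca1 fell to 0.292 times its DMSO level, a log2 change of -1.78 ± 0.16 (SE, adjusted p = 7.95e-07), and with both compounds it fell to 0.165 times that level, -2.60 ± 0.17 (SE, adjusted p = 2.39e-08). With loperamide it was at -0.20 ± 0.15 (SE, adjusted p = 0.333). On FPKM with a pseudocount of 1, which understates the change of a low gene, these falls were -1.10 (adjusted p = 1.83e-05) and -1.42 (adjusted p = 1.70e-06). The LXR receptor gene Nr1h2 was at 0.10 ± 0.10 (SE, adjusted p = 0.439) with the inhibitor, and the partner receptor gene Rxra at -0.88 ± 0.14 (SE, adjusted p = 1.11e-04). Of 11 non-member genes of LXR and oxysterols tested, 2 rose and 3 fell with the inhibitor, where 20.7% of all genes rose and 20.3% fell. Their log2 fold changes ran from -1.28 to 3.03 with a median of 0.020, and 6 of the 11 were positive. Nr1h2 and Rxra were picked outside the rule by which genes are named here. What part any gene of that list has in the Abca1 level was not tested.

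Abcg1, the exporter that passes cholesterol to mature lipoproteins (ENSMUSG00000024030, chromosome 17, 31057675 to 31117988), stood at 64.2, 70.4 and 62.5 CPM in DMSO, 56.5, 58.3 and 54.7 in FoxOi, 69.0, 85.5 and 70.5 in Loperamide and 67.3, 71.8 and 77.0 in FoxOi_Loperamide. The FoxOi libraries lay below the other groups by a small gap. Its log2 fold change was -0.22 ± 0.10 (SE, adjusted p = 0.0815) with the inhibitor, 0.19 ± 0.10 (SE, adjusted p = 0.147) with loperamide and 0.13 ± 0.10 (SE, adjusted p = 0.282) with both. The first was a call with the replicate block (adjusted p = 0.00976) and without DMSO replicate 3 (adjusted p = 0.0407), and that for loperamide was a call with the block (adjusted p = 0.0295). Mylip (ENSMUSG00000038175, chromosome 13, 45389742 to 45412022) was at 12.6, 13.6 and 14.9 CPM in DMSO, 9.99, 9.17 and 9.43 in FoxOi, 16.2, 16.9 and 18.0 in Loperamide and 12.03, 11.8 and 14.1 in FoxOi_Loperamide. FoxOi was below and Loperamide above DMSO, and FoxOi_Loperamide overlapped it. Mylip fell by 0.52 ± 0.11 (log2 ± SE, adjusted p = 0.00191) with the inhibitor, rose by 0.32 ± 0.11 (SE, adjusted p = 0.0403) with loperamide, and was at -0.11 ± 0.11 (SE, adjusted p = 0.447) with both. The rise was not called in DESeq2 (adjusted p = 0.0606), with no filter on low counts (adjusted p = 0.163), in a fit of those groups alone (adjusted p = 0.0713), on FPKM without a filter (adjusted p = 0.0701), without DMSO replicate 1 (adjusted p = 0.177), without DMSO replicate 2 (adjusted p = 0.121), without Loperamide replicate 1 (adjusted p = 0.0552), without Loperamide replicate 2 (adjusted p = 0.0818) or without Loperamide replicate 3 (adjusted p = 0.136).

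Loperamide was then compared in cells that had the inhibitor throughout (FoxOi_Loperamide against FoxOi). Here 14 members rose and 2 fell, where 11.5% of all genes tested rose and 15.1% fell, and the members' median log2 fold change was 0.35 against 0.0037 over all genes. With the replicate block 18 members rose and 4 fell, where 3638 of the 16808 genes tested rose and 3866 fell. Rises were spread over 5 of 7 mevalonate enzymes, 5 of 11 sterol enzymes, 2 of 8 genes of uptake and regulation, and 2 of 3 LXR targets. Nsdhl led with 1.20 ± 0.14 (SE, adjusted p = 1.52e-05), followed among enzymes by Mvd (1.15 ± 0.12, adjusted p = 6.83e-06), Tm7sf2 (0.89 ± 0.19, adjusted p = 0.00305), Acat2 (0.82 ± 0.10, adjusted p = 3.44e-05) and Dhcr7 (0.73 ± 0.090, adjusted p = 2.72e-05). Stard4 rose by 0.94 ± 0.13 (SE, adjusted p = 6.02e-05) and Npc2 by 0.60 ± 0.078 (SE, adjusted p = 4.47e-05). Hsd17b7, Fdps, Mvk and Lss also rose, by 0.63, 0.61, 0.52 and 0.52. Hmgcs1 rose by 0.57 ± 0.17 (SE, adjusted p = 0.0224), a call lost on FPKM without a filter (adjusted p = 0.0761), without FoxOi replicate 1 (adjusted p = 0.0593), without FoxOi replicate 2 (adjusted p = 0.0615) or without FoxOi_Loperamide replicate 2 (adjusted p = 0.0725).

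Cyp51 (0.018 ± 0.12 (SE, adjusted p = 0.932)), Sqle (0.029 ± 0.10 (SE, adjusted p = 0.866)), Sc5d (0.078 ± 0.10 (SE, adjusted p = 0.592)) and Msmo1 (0.18 ± 0.11 (SE, adjusted p = 0.259)) were not called between those groups. Fdft1 (0.19), Ebp (-0.11) and Scap (-0.0065) were not called either. Abca1 fell further, by 0.82 ± 0.18 (log2 ± SE, adjusted p = 0.00311), and the test no longer called it on FPKM with a pseudocount of 1 (adjusted p = 0.0562) or on FPKM without a filter (adjusted p = 0.0944). Pmvk fell by 0.42 ± 0.13 (adjusted p = 0.0298), a call lost on FPKM with a pseudocount of 1 (adjusted p = 0.0540), on FPKM with a pseudocount of 0.1 (adjusted p = 0.0552), on FPKM without a filter (adjusted p = 0.117), without FoxOi replicate 1 (adjusted p = 0.154), without FoxOi replicate 2 (adjusted p = 0.0986), without FoxOi_Loperamide replicate 2 (adjusted p = 0.0737) or without FoxOi_Loperamide replicate 3 (adjusted p = 0.122). Abcg1 rose by 0.35 ± 0.10 (SE, adjusted p = 0.0134), which was lost without FoxOi_Loperamide replicate 3 (adjusted p = 0.0595). Mylip rose by 0.41 ± 0.11 (SE, adjusted p = 0.0144), which was lost without FoxOi replicate 2 (adjusted p = 0.0554) or without FoxOi_Loperamide replicate 3 (adjusted p = 0.0730).

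Insig1, Insig2, Srebf1, Srebf2 and Scap were not called in this comparison. Insig1 was at 0.33 ± 0.13 (SE, adjusted p = 0.0689), Insig2 at -0.23 ± 0.14 (SE, adjusted p = 0.246), Srebf1 at 0.26 ± 0.11 (SE, adjusted p = 0.0796) and Srebf2 at 0.27 ± 0.12 (SE, adjusted p = 0.0952). With the replicate block these 4 were calls, with adjusted p = 0.00952, 0.00670, 0.00372 and 5.16e-04. Idi1 (0.47 ± 0.19 (SE, adjusted p = 0.0824)) and Npc1 (-0.26 ± 0.14 (SE, adjusted p = 0.174)) were also calls with the block (adjusted p = 0.00220 and adjusted p = 7.19e-04). Without a block, Insig1 was called with no filter on low counts (adjusted p = 0.00796) or in a fit of those groups alone (adjusted p = 0.0172). Srebf1 was called with no filter on low counts (adjusted p = 0.0344), without FoxOi replicate 1 (adjusted p = 0.0461) or without FoxOi_Loperamide replicate 2 (adjusted p = 0.0432). Srebf2 was called with no filter on low counts (adjusted p = 0.0310) or without FoxOi_Loperamide replicate 1 (adjusted p = 0.0345), and Idi1 with no filter on low counts (adjusted p = 0.00126), in a fit of those groups alone (adjusted p = 0.0368) or without FoxOi_Loperamide replicate 1 (adjusted p = 0.0316).

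The inhibitor was compared in cells that had loperamide throughout (FoxOi_Loperamide against Loperamide). Here 11 members rose and 4 fell, where 18.4% of all genes tested rose and 20.5% fell, with a median of 0.17 against -0.0068 over all genes. Without Loperamide replicate 2 the members that rose numbered 7. Ebp rose most, by 0.88 ± 0.12 (SE, adjusted p = 5.09e-05), from the low level that loperamide alone had given it. Npc2 rose by 0.84 ± 0.078 (SE, adjusted p = 1.57e-06), Acat2 by 0.71 ± 0.10 (SE, adjusted p = 9.50e-05), Hsd17b7 by 0.69 ± 0.16 (SE, adjusted p = 0.00354), Nsdhl by 0.50 ± 0.14 (SE, adjusted p = 0.0104), Dhcr7 by 0.48 ± 0.090 (SE, adjusted p = 6.81e-04) and Mvk by 0.46 ± 0.10 (SE, adjusted p = 0.00171). Members that fell were Abca1 (-2.40 ± 0.17, adjusted p = 1.47e-07), Tm7sf2 (-0.88 ± 0.18, adjusted p = 0.00172) and Mylip (-0.43 ± 0.11, adjusted p = 0.00680), besides Fdft1.

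Smaller calls in that comparison were lost without single libraries. Sqle rose by 0.37 ± 0.10 (SE, adjusted p = 0.00937), which was lost without Loperamide replicate 2 (adjusted p = 0.0531). Cyp51 rose by 0.37 ± 0.12 (SE, adjusted p = 0.0218), which was lost on FPKM without a filter (adjusted p = 0.0673), without FoxOi_Loperamide replicate 1 (adjusted p = 0.0667), without Loperamide replicate 2 (adjusted p = 0.109) or without FoxOi_Loperamide replicate 2 (adjusted p = 0.0655). Sc5d rose by 0.29 ± 0.10 (SE, adjusted p = 0.0255), which was lost on FPKM without a filter (adjusted p = 0.0570), without Loperamide replicate 1 (adjusted p = 0.0823), without Loperamide replicate 2 (adjusted p = 0.0943), without FoxOi_Loperamide replicate 2 (adjusted p = 0.0752) or without FoxOi_Loperamide replicate 3 (adjusted p = 0.0647). Pmvk, the phosphomevalonate kinase, rose by 0.41 ± 0.14 (SE, adjusted p = 0.0259), which was lost on FPKM without a filter (adjusted p = 0.0853), without FoxOi_Loperamide replicate 1 (adjusted p = 0.0992), without Loperamide replicate 2 (adjusted p = 0.105), without Loperamide replicate 3 (adjusted p = 0.0644) or without FoxOi_Loperamide replicate 2 (adjusted p = 0.0631). Fdft1 fell by 0.42 ± 0.12 (adjusted p = 0.0119), a call lost on FPKM without a filter (adjusted p = 0.0504), without Loperamide replicate 1 (adjusted p = 0.0655) or without FoxOi_Loperamide replicate 3 (adjusted p = 0.0546).

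Genes not called there included the regulators Insig1 (-0.15 ± 0.13 (SE, adjusted p = 0.377)), Srebf2 (-0.10 ± 0.12 (SE, adjusted p = 0.508)) and Scap (0.12 ± 0.10 (SE, adjusted p = 0.351)), the enzymes Msmo1 (-0.0032 ± 0.11 (SE, adjusted p = 0.986)), Hmgcs1 (-0.13 ± 0.17 (SE, adjusted p = 0.588)) and Fdps (0.066 ± 0.13 (SE, adjusted p = 0.718)), and Npc1 (0.033 ± 0.14 (SE, adjusted p = 0.874)). Abcg1, the exporter, was at -0.059 ± 0.10 (SE, adjusted p = 0.663). Lss was at 0.17 ± 0.11 (SE, adjusted p = 0.229) and was called without Loperamide replicate 3 (adjusted p = 0.0242). Insig2 (-0.30 ± 0.14 (SE, adjusted p = 0.0989)), Srebf1 (-0.23 ± 0.11 (SE, adjusted p = 0.0928)), Stard4 (0.32 ± 0.12 (SE, adjusted p = 0.0534)), Mvd (0.26 ± 0.12 (SE, adjusted p = 0.105)) and Idi1 (0.29 ± 0.19 (SE, adjusted p = 0.252)) became calls with the replicate block, with adjusted p = 6.44e-04, 0.00681, 5.37e-04, 0.0124 and 0.0460. Stard4 was also called with no filter on low counts (adjusted p = 0.0118), in a fit of those groups alone (adjusted p = 0.0167) or without Loperamide replicate 3 (adjusted p = 0.0176). Mvd was called without FoxOi_Loperamide replicate 3 (adjusted p = 0.0330).

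Whether the effects of the compounds add was tested by the interaction, which subtracts the log2 change that loperamide made in cells without the inhibitor from the one it made in cells with it. Of the members 3 had a higher and 3 a lower value, where 3.66% of all genes tested were higher and 5.82% lower. With the replicate block 6 members were higher and 10 lower, where 1920 of the 16808 genes tested were higher and 2414 lower. Without DMSO replicate 3 or Loperamide replicate 2 the lower members numbered 5. The members' median was -0.13, against -0.021 over all genes. For Msmo1, loperamide added 1.38 without the inhibitor and 0.18 with it, an interaction of -1.20 ± 0.16 (SE, adjusted p = 2.55e-04). For Cyp51 the effects were 0.79 and 0.018, an interaction of -0.77 ± 0.17 (SE, adjusted p = 0.00834). Both demethylases rose with each compound alone, and a further rise over the inhibitor alone was not called.

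Insig1 went from 1.04 to 0.33, an interaction of -0.71 ± 0.18 (SE, adjusted p = 0.0195), a call not made on FPKM without a filter (adjusted p = 0.0900), without DMSO replicate 1 (adjusted p = 0.0506), without DMSO replicate 2 (adjusted p = 0.0849), without FoxOi replicate 2 (adjusted p = 0.0571), without Loperamide replicate 1 (adjusted p = 0.0524) or without Loperamide replicate 3 (adjusted p = 0.0567). Ebp went from -0.84 to -0.11, an interaction of 0.73 ± 0.17 (SE, adjusted p = 0.0114), where the fall with loperamide was called only without the inhibitor. Dhcr7 went from 0.086 to 0.73, an interaction of 0.64 ± 0.13 (SE, adjusted p = 0.00473). Mvk went from 0.028 to 0.52, an interaction of 0.50 ± 0.14 (SE, adjusted p = 0.0335), a call not made on FPKM without a filter (adjusted p = 0.0506), without DMSO replicate 2 (adjusted p = 0.0704), without FoxOi replicate 2 (adjusted p = 0.0560), without FoxOi replicate 3 (adjusted p = 0.0839), without FoxOi_Loperamide replicate 1 (adjusted p = 0.0705), without Loperamide replicate 1 (adjusted p = 0.0654), without Loperamide replicate 2 (adjusted p = 0.0804) or without FoxOi_Loperamide replicate 2 (adjusted p = 0.0906). Mvk and Dhcr7 were the enzymes that neither compound alone moved past the threshold.

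**Figure D4:**
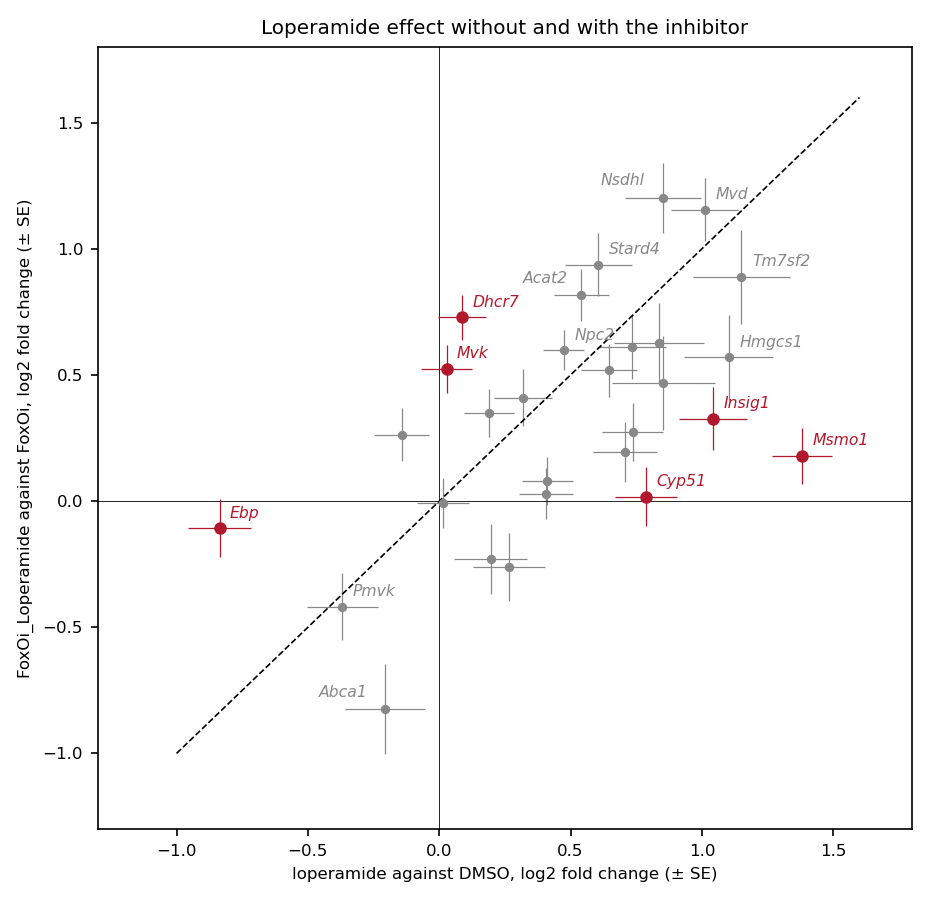
Log2 fold change for loperamide without the inhibitor (horizontal axis, Loperamide against DMSO) and with it (vertical axis, FoxOi_Loperamide against FoxOi) for the 29 members, ± SE, with the dashed line where both are equal. The 6 members called in the interaction are red, with Msmo1, Cyp51 and Insig1 right of the line and Dhcr7, Mvk and Ebp left of it.

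The other members of the interaction were not called. Srebf2 was at -0.46 ± 0.16 (SE, adjusted p = 0.0960), Srebf1 at 0.41 ± 0.15 (SE, adjusted p = 0.107), Insig2 at -0.43 ± 0.20 (SE, adjusted p = 0.204), Abca1 at -0.62 ± 0.23 (SE, adjusted p = 0.119), Abcg1 at 0.16 ± 0.13 (SE, adjusted p = 0.545) and Mylip at 0.090 ± 0.16 (SE, adjusted p = 0.805). With the replicate block Srebf2, Srebf1, Insig2 and Abca1 were calls, with adjusted p = 1.18e-04, 0.00386, 0.00134 and 0.0134. Fdft1 (-0.51 ± 0.17 (SE, adjusted p = 0.0758)), Npc1 (-0.53 ± 0.19 (SE, adjusted p = 0.106)), Sqle (-0.38 ± 0.14 (SE, adjusted p = 0.120)), Sc5d (-0.33 ± 0.14 (SE, adjusted p = 0.149)), Stard4 (0.33 ± 0.18 (SE, adjusted p = 0.290)) and Nsdhl (0.35 ± 0.20 (SE, adjusted p = 0.322)) were calls with the block as well, with adjusted p = 0.00168, 3.23e-05, 0.00344, 0.00949, 0.0234 and 0.0444. Without a block, Srebf2 was called without FoxOi_Loperamide replicate 3 (adjusted p = 0.0337), Sc5d without DMSO replicate 3 (adjusted p = 0.0308) and Fdft1 without FoxOi replicate 3 (adjusted p = 0.0455) or without Loperamide replicate 2 (adjusted p = 0.0452). Srebf1 was called with no filter on low counts (adjusted p = 0.0397) or without DMSO replicate 3 (adjusted p = 0.0149), and Npc1 with no filter on low counts (adjusted p = 0.0334) or without DMSO replicate 3 (adjusted p = 0.0390). Hmgcs1, at -0.53, was called with no filter on low counts (adjusted p = 0.0254) or without Loperamide replicate 2 (adjusted p = 0.0292). Acat2, Pmvk, Mvd, Idi1, Fdps, Lss, Tm7sf2, Hsd17b7, Scap and Npc2 lay between -0.39 and 0.27.

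Of 46 other genes of sterol metabolism, sensing and transport, 44 were tested, and they moved in both directions. With the inhibitor 10 of 44 rose and 12 fell, where 20.7% of all genes rose and 20.3% fell. With loperamide 12 rose and 4 fell, where 16.1% and 15.8% of all genes did. With both 12 rose and 10 fell, where 22.3% and 23.2% did. The medians were 0.0030, 0.072 and 0.013. In the comparison of both compounds with the inhibitor alone 6 rose and 7 fell, against 11.5% and 15.1% of all genes. In that with loperamide alone 7 rose and 11 fell, against 18.4% and 20.5%. In the interaction 2 were higher and 10 lower, against 3.66% and 5.82%. Stard5, a sterol carrier, stood at 7.99, 7.09 and 6.38 CPM in DMSO, 32.4, 31.8 and 24.6 in FoxOi, 15.6, 14.7 and 12.01 in Loperamide and 38.9, 30.2 and 22.9 in FoxOi_Loperamide. It rose by 2.04 ± 0.19 (SE, adjusted p = 1.02e-06) with the inhibitor and by 2.10 ± 0.19 (SE, adjusted p = 5.60e-07) with both. Tmem97, a receptor that binds NPC1, rose from 51.3 ± 2.32 to 93.0 ± 6.03 CPM (SD, n = 3) with the inhibitor, a log2 change of 0.86 ± 0.086 (SE, adjusted p = 2.06e-06). Soat2, which makes cholesterol esters, rose from a low level of 0.923 ± 0.314 CPM to 4.67 ± 0.680, 2.32 ± 0.26 (SE, adjusted p = 5.91e-06), and was at 1.49 ± 0.226 CPM with both compounds.

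With loperamide the leading genes of that list were Rnf145, a ubiquitin ligase that acts on SCAP, the LXR gene Nr1h2 and the lipoprotein receptor gene Vldlr. Rnf145 stood at 119.6, 129 and 146 CPM in DMSO, 153, 165 and 163 in FoxOi, 256, 261 and 272 in Loperamide and 239, 248 and 240.2 in FoxOi_Loperamide, and the groups with loperamide were above the others. It rose by 1.00 ± 0.082 (SE, adjusted p = 7.85e-07) with loperamide and by 0.88 ± 0.082 (SE, adjusted p = 7.16e-07) with both. Nr1h2 rose from 48.8 ± 5.79 to 80.7 ± 5.72 CPM with loperamide, 0.72 ± 0.10 (SE, adjusted p = 6.23e-05), and Vldlr from 116 ± 15.9 to 202 ± 21.8 CPM, 0.79 ± 0.11 (SE, adjusted p = 1.10e-04). With both compounds the smallest adjusted p belonged to Osbpl2, a gene of the oxysterol-binding protein family, which fell from 65.9 ± 1.19 to 35.2 ± 2.30 CPM, -0.91 ± 0.080 (SE, adjusted p = 4.06e-07).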

How the data were processed

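Per the labels' protocols, DNase-treated RNA of 12 Min6 samples was sequenced from a stranded mRNA kit, as single-end reads 50 bases long. Builds GRCm38 and mm10 and the tools DESeq2, Picard 2.19.2 and STAR 2.7.5a stand in the submitters' processing notes. Which tool counted the reads, and with what strand setting, is not given in the sources used here. As files, the authors deposited raw counts per gene, which are whole numbers whose totals differ between libraries, and FPKM values. The deposited FPKM equal counts over gene length and a library factor, and over 11651 genes that factor was within 0.226% of the size factor from DESeq2. All 29 members have the location that GENCODE M21 gives.

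The members and gene lists were chosen with earlier results of these data known. Genes were kept by filterByExpr in edgeR 4.0.16 (minimum count 10, total 15), libraries were scaled with TMM, and 1 quasi-likelihood model with group as its term was fitted to all 12 libraries in R 4.3.3. P-values were adjusted by Benjamini-Hochberg over 16808 genes. Log2 fold changes used a prior count of 0.125, and SE is the absolute log2 fold change over the square root of F. The script was tested on simulated data with known changes. Of 67 genes changed 1.5-fold it recovered 24 for FoxOi, 34 for Loperamide and 31 for FoxOi_Loperamide, each against DMSO. For the interaction it recovered 6 of 67 at 1.5-fold, 43 of 67 at 2-fold and 52 of 66 at 4-fold. The simulated libraries had no pairing by replicate number and no group differences besides the added ones, over randomly picked genes. The rates are therefore a rough guide and do not describe these members. The share of 4-fold changes that the script had to recover was set after the interaction result was known. A member not called in the interaction may still differ. In each step and comparison with DMSO the 3 members with the smallest adjusted p were given in full. So were the regulators, the LXR targets, members called in the interaction, and the 3 leading called genes of the other list. The values of Nr1h2 and Rxra with the inhibitor stand outside that rule.

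Alternatives were DESeq2 1.42.0, RLE scaling, no filter, the groups compared alone, log2 FPKM with limma 3.58.1 (pseudocounts 1 and 0.1), each library left out in turn, and the replicate number as a block. Libraries with the same number share a code in all groups, whose meaning the labels do not give. Their deviations from the group means correlated in all 18 pairs (0.112 to 0.596, over genes), so the numbers were taken to pair the libraries. The chi-square per degree of freedom between libraries of 1 group was 4.99 to 31.6, where counting error alone gives about 1. Reads carry no molecular identifiers. The values of 1 marker gene are not reported here.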

Additional observations from a re-analysis of the deposited data

Results flagged for a closer look

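The effect of loperamide on the log2 scale differed between cells with and without the FoxO1 inhibitor for 6 of the 29 members, by the interaction in edgeR's quasi-likelihood fit, where 3.66% of all genes were higher and 5.82% lower. In the sterol branch the difference was -1.20 ± 0.16 (SE, adjusted p = 2.55e-04) for Msmo1, -0.77 ± 0.17 (SE, adjusted p = 0.00834) for Cyp51, 0.73 ± 0.17 (SE, adjusted p = 0.0114) for Ebp and 0.64 ± 0.13 (SE, adjusted p = 0.00473) for Dhcr7. It was 0.50 ± 0.14 (SE, adjusted p = 0.0335) for Mvk in the mevalonate pathway and -0.71 ± 0.18 (SE, adjusted p = 0.0195) for Insig1 among the regulators. The loperamide effect, without and with the inhibitor, was 1.38 and 0.18 for Msmo1, 0.79 and 0.018 for Cyp51, -0.84 and -0.11 for Ebp, 0.086 and 0.73 for Dhcr7, 0.028 and 0.52 for Mvk, and 1.04 and 0.33 for Insig1. Groups of 3 libraries are too small to judge a single library as outlying, but each library was left out in turn. The calls of Mvk and Insig1 were each lost without any 1 of several libraries, named in the interaction results above. Those of Msmo1, Cyp51, Ebp and Dhcr7 were kept in these fits. With the replicate number as a block all 6 calls were kept, with adjusted p = 0.00239 for Mvk and 7.62e-04 for Insig1. In that fit 6 members were higher and 10 lower, where 1920 of the 16808 genes tested were higher and 2414 lower.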

How the results depend on the processing

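Over all members, comparisons and alternatives, 2433 values kept their side of the threshold, 68 gained a call, 80 lost one and 0 values that were called in either fit changed direction. Among the 2433, 63 values that were not called changed sign, all of them within 0.13 of 0 on the log2 scale as reported, and 2370 kept it. No setting moved the median log2 fold change of all genes by over 0.1. Members lower with loperamide against DMSO numbered 2 in place of 1 in DESeq2, with RLE scaling, with the replicate block and with low counts unfiltered, and 1 to 2 when single libraries were left out. Members lower with both compounds against DMSO numbered 1 to 2 when single libraries were left out. In FoxOi_Loperamide against FoxOi the lower members numbered 2, against 4 with the replicate block, 0 on FPKM with a pseudocount of 1 (with or without a filter), 1 with a pseudocount of 0.1, and 1 to 2 without single libraries. In FoxOi_Loperamide against Loperamide the higher members numbered 11, and 7 to 12 without single libraries. In the interaction the 3 lower members became 10 with the replicate block and 5 where low counts were left in, and 2 to 5 without single libraries, while the 3 higher became 6 with the block and 2 to 4 without single libraries. The replicate block changed no call of a member other than those given in the report. It added calls of members and removed none. Among all genes, the block moved the count higher with loperamide from 2713 to 4330, the counts in FoxOi_Loperamide against FoxOi from 1926 to 3638 higher and from 2539 to 3866 lower, and those of the interaction from 616 to 1920 higher and from 978 to 2414 lower. Without FoxOi replicate 2 the genes higher in FoxOi_Loperamide against FoxOi numbered 1270. For the interaction 597 genes were lower without DMSO replicate 2 and 957 higher without DMSO replicate 3. The fold change of Abca1 on FPKM with a pseudocount of 1 was -1.10 in place of -1.78 with the inhibitor, -1.42 in place of -2.60 with both compounds, -0.33 in place of -0.82 for both against the inhibitor and -1.27 in place of -2.40 for both against loperamide. The pseudocount shrinks the change of a gene listed near 1 FPKM, and the cause of the other shifts was not tested. With 3 libraries per group small changes may be missed, and the Loperamide group had the lowest depth.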
